A study of Mus musculus with 4 samples.

Results

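The 34 genes described here encode nucleolar proteins and factors that build ribosomes. They were chosen by name, as known parts of the pathway, with earlier results of these data known. Of the 34, 33 were named among the 12892 genes found in the assembled transcripts, and 32 were assembled in all 4 libraries. Noc2l matched no run of introns and is not analysed here. The libraries come from C2C12, a mouse skeletal myoblast line (strain C57BL/6 on its label) whose cells leave the cell cycle and form myotubes once serum is low. There was 1 library of polyadenylated RNA from cells in exponential growth in high serum (24 h before the switch, called growth here), and 1 library each at 60 h, 120 h and 168 h after a switch to low serum at confluence. With 1 library per time point there is no replicate, so no p-value is given and each difference is one between libraries.

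Ribosome production starts in the nucleolus, where RNA polymerase I copies the ribosomal DNA into a long precursor. Small nucleolar RNAs, carried in protein particles called snoRNPs, guide the methylation and pseudouridylation of that precursor. A large assembly, the small-subunit processome, cuts and folds the part that becomes the 40S subunit, and another set of factors builds the 60S subunit. The whole process is known to run fastest in dividing cells, and Myc, a transcription factor that binds the E-box CACGTG together with Max, is known to activate many of its genes.

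The E-box was looked for in promoter windows of RefSeq (GRCm38.p6), from 250 bases before to 50 bases after each start site, because Myc is known to act through it. CACGTG is its own reverse complement, so each match counts for both strands. Windows were found for 29 of the 34 genes. Of these 29, 7 held CACGTG (24.1%), against 8.09% of the 27025 genes of the table, 12.1% of the 8646 genes at 1 RPKM or more in growth, and 17.9% of 112 other ribosome biogenesis genes. A match is a string of letters and says nothing of binding. The 8 sites follow, 5′ to 3′ on the gene's strand with the motif in capitals.
Mybbp1a (chr11:72441347-72441376, plus strand): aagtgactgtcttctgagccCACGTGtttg
Utp4 (chr8:106893643-106893672, plus strand): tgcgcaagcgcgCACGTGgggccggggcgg
Utp20 (chr10:88826765-88826794, minus strand): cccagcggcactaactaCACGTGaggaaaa
Wdr43 (chr17:71616220-71616249, plus strand): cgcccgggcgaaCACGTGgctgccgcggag
Pes1 (chr11:3963965-3963994, plus strand): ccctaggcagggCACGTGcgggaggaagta
Nop2 (chr6:125131811-125131840, plus strand): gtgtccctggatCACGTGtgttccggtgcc
Rrn3 (chr16:13780472-13780501, plus strand): gagcgccaaggtCACGTGcacacgcctcta
Rrn3 (chr16:13780639-13780668, plus strand): ttacgctctgctCACGTGggccgcgtcccg
The Nop2 and both Rrn3 sites lie before the start site, at 60, 215 and 48 bases from it, and the other 5 lie within the first 50 transcribed bases. Rrn3, the factor that recruits RNA polymerase I, was the 1 gene of the 29 with more than 1 site. Its 250 bases before the start site (window chr16:13780449-13780748, GRCm38.p6) follow, with both sites in capitals, next to those of Nop2 (window chr6:125131633-125131932), the E-box gene with the largest fall in expression at 60 h.
Rrn3: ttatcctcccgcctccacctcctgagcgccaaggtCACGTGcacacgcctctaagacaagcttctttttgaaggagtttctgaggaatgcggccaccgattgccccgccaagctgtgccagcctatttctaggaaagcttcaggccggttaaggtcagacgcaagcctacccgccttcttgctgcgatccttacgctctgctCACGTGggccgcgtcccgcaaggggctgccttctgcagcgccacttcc
Nop2: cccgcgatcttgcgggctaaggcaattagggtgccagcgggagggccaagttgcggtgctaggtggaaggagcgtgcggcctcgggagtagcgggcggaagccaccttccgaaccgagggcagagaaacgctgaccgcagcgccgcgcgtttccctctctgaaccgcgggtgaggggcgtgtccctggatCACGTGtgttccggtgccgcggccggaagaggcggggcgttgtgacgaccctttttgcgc

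Levels are RPKM, the deposited abundance per kilobase relative to the size of the library, summed over the transcripts assembled for a gene. A value after ± is the distance to the confidence limit. For 1 transcript this limit is the deposited one. It covers counting error and the sharing of fragments among transcripts, and no difference between cultures. For several transcripts of a gene, the deposited distances were combined as the square root of their summed squares. That treats the transcripts as independent and takes no account of fragments they share, so combined limits are approximate. The libraries held 24488681 to 48228887 fragments. Among named genes at 1 RPKM or more, the median limit lay at 9.10% to 13.7% of a gene's summed value, widest at 120 h. A gene was said to rise or fall when it differed at least 2-fold on the log2(RPKM + 1) scale, reached 1 RPKM in the higher library and had limits that did not overlap. The sum counts a gene more than once when its assembly is broken into pieces, so another value was taken through the introns: the median, over the introns a library held, of the RPKM of all transcripts holding that intron. Its limit is the median, over those introns, of limits combined in the same way. The map of assemblies shows where the choice of measure matters. For the 11 genes with 1 transcript in every library the measures coincide.

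**Figure D1:**
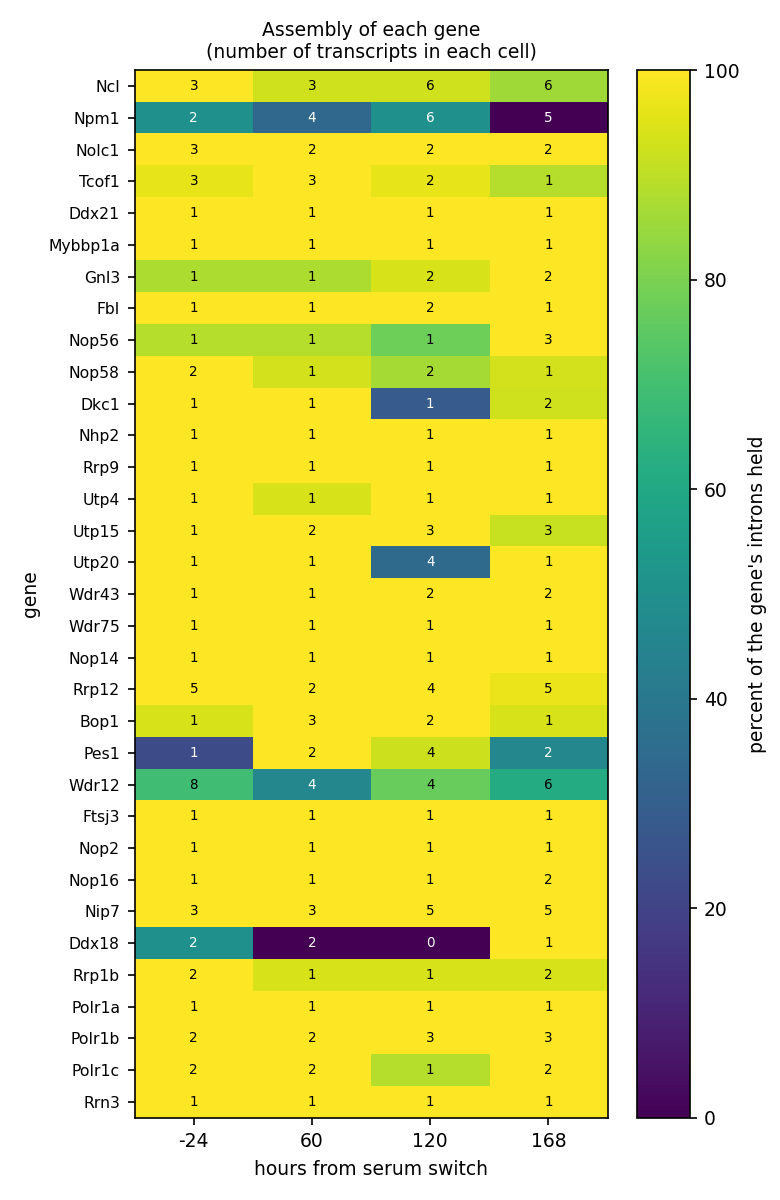
Each row is a gene and each column a library, by hours from the serum switch; the number is the count of assembled transcripts, and the colour is the percent of the gene's introns held, out of those held in any library. Npm1, Pes1, Wdr12 and Ddx18 were held in part in most libraries, Utp20 and Dkc1 in part at 120 h, and 11 genes had 1 transcript throughout.

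At 60 h 10 of 33 genes had fallen against growth and 0 had risen; over all genes 15.4% fell and 11.1% rose. The 10 were Fbl, Npm1, Nolc1, Dkc1, Nop2, Nhp2, Wdr12, Nop16, Mybbp1a and Utp20. All 10 also fell through the introns, where 9.57% of all genes fell by both measures. Among the 10, only Npm1 and Wdr12 had an intron ratio that differed from the ratio by the sum. For the others the measures gave the same number, so their intron fall repeats the sum. The median log2 ratio of the 33 was -0.80, against -0.18 over all genes, and 30 of the 33 were lower, against 58.6% of all genes (29 and 49.1% after rescaling by median ratios, where Bop1 changed sides). Mybbp1a (-1.02) and Utp20 (-1.01) lay just past the 2-fold line, and Nip7 (-0.93) and Ncl (-0.92) just short of it. At 168 h 16 of 33 genes had fallen against growth and 0 had risen, while 18.5% of all genes fell and 15.6% rose. Among genes averaging 5 RPKM or more over the libraries, as 32 of the 33 did, 15.7% fell at 60 h and 19.4% at 168 h. Through the introns 20 of 32 fell, against 17.8% of all genes. The median log2 ratio at 168 h against growth was -0.97 by the sum and -1.18 through the introns, beside -0.11 and -0.12 over all genes. Both comparisons use the same growth library. Of the 11 genes with 1 transcript in every library, 7 fell at 168 h against growth and all 11 were lower, with log2 ratios from -2.02 to -0.51.

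Marker genes of cell states also changed between the libraries, in different directions. All 9 proliferation markers were named, and their summed level was 1023 RPKM in growth, 232 RPKM at 60 h, 154 RPKM at 120 h and 84.4 RPKM at 168 h; 8 of 9 fell at 60 h and 9 of 9 at 168 h against growth. The 11 myotube markers summed to 78.5 RPKM in growth, 12515 RPKM at 60 h, 16670 RPKM at 120 h and 14496 RPKM at 168 h, and all 11 rose at both times against growth. The 5 markers of the myoblast line summed to 3287 to 4350 RPKM in all libraries, but they went different ways: against growth Des rose and Vim fell at 60 h and 168 h, Myod1 fell at 168 h, and Myf5 and Cdh15 passed the rule at neither time. The 5 smooth muscle genes summed to 1025 RPKM in growth and to 98.8 to 215 RPKM later, of which Tagln, Actg2 and Cnn1 fell at both times, Smtn rose at both times by the sum alone, and Myh11 was under 1 RPKM throughout. Macrophage and endothelial markers summed to 1.14 to 15.3 RPKM (Adgre1, Ptprc, Pecam1 and Kdr were not assembled), and of the adipocyte markers only Fabp4 was assembled, under 1 RPKM. The part of these shifts in the results was not tested. In RNA from whole cultures, fewer dividing cells and less of these RNAs per cell cannot be told apart.

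**Figure D2:**
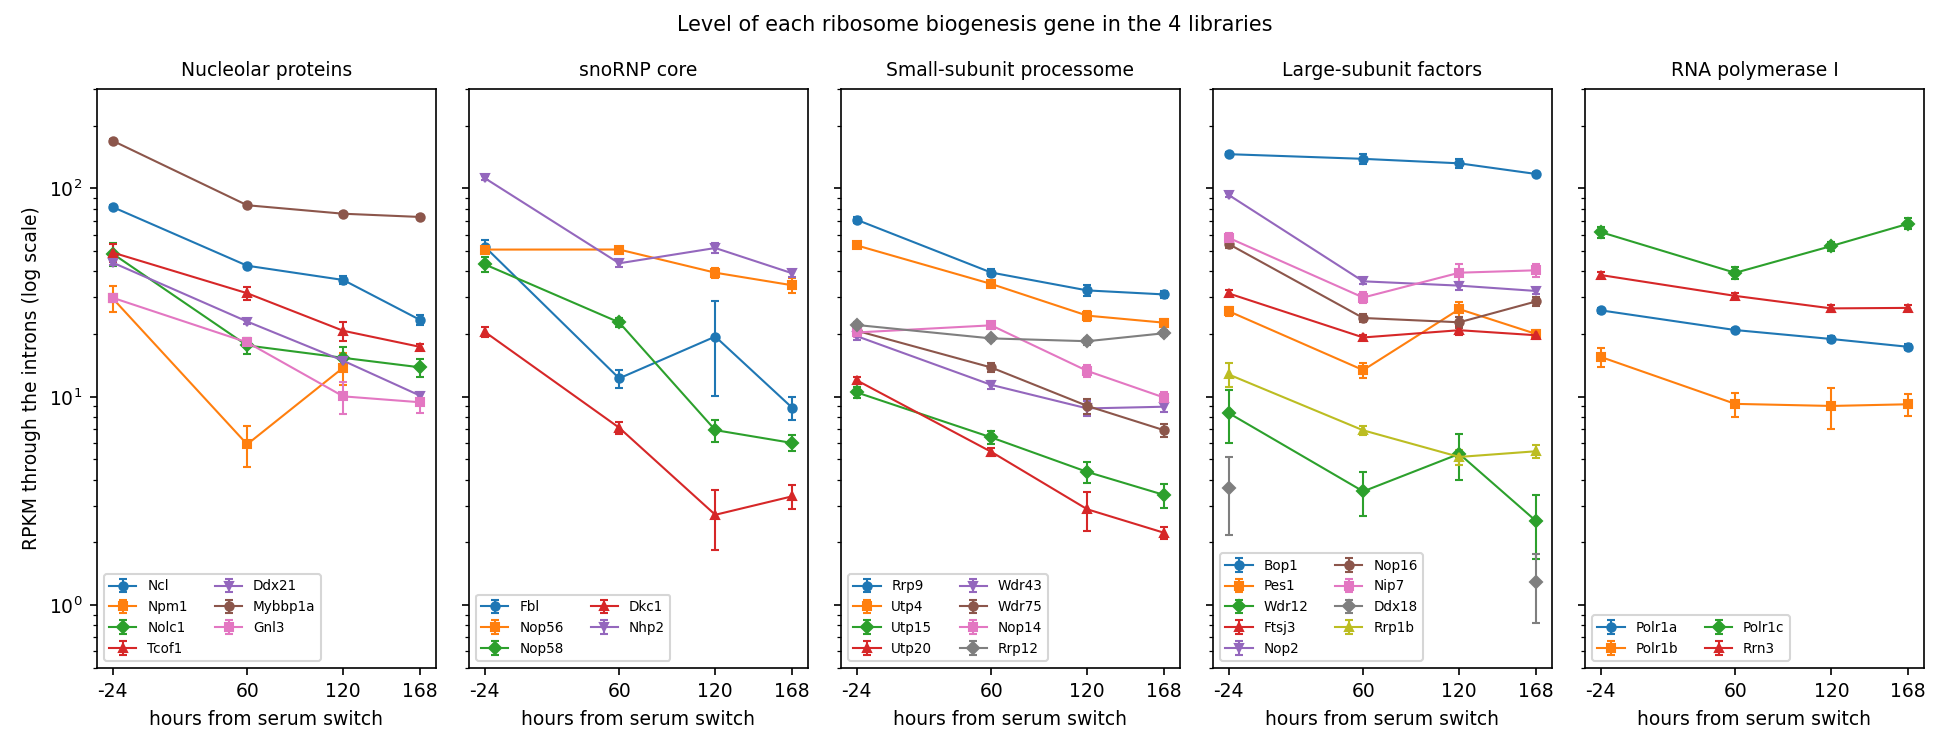
RPKM through the introns (log scale) against hours from the serum switch, 1 panel per role and 1 line per gene. Bars reach to the confidence limits, combined where several transcripts hold an intron, and a gene without a held intron has no point. Most lines are highest in growth, as in 27 of the 31 genes with a value in every library, and 0 of the 4 RNA polymerase I genes pass the 2-fold rule in any comparison.

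Among the 7 general nucleolar proteins, 3 fell at 60 h and 5 at 168 h against growth, beside 15.4% and 18.5% of all genes. Mybbp1a, a nucleolar protein tied to ribosomal DNA transcription and precursor processing, had the highest level of the 33 genes in growth. It stood at 169 ± 2.36 RPKM in growth, 83 ± 1.26 RPKM at 60 h, 75.6 ± 1.72 RPKM at 120 h and 72.9 ± 1.26 RPKM at 168 h. Growth was highest, and the 120 h and 168 h limits overlapped. Ddx21 (chr10:62043207-62065047 as the files give it, build not given in the sources used here), an RNA helicase that links RNA polymerase I transcription to snoRNA function, had 44.1 ± 1.17 RPKM in growth, 23 ± 0.651 RPKM at 60 h, 14.9 ± 0.739 RPKM at 120 h and 10.1 ± 0.454 RPKM at 168 h. Each library was below the one before it with no overlap, and the log2 ratio at 168 h against growth was -2.02. Nolc1, the nucleolar chaperone of snoRNPs, had 48.6 ± 5.99 RPKM in growth, 17.6 ± 1.55 RPKM at 60 h, 15.4 ± 1.95 RPKM at 120 h and 13.8 ± 1.42 RPKM at 168 h. It was already at 36.3% of its growth level at 60 h, and the 120 h limits overlapped those at 60 h and 168 h. Gnl3 (nucleostemin, a GTPase of proliferating cells) had 29.9 ± 1.42 RPKM in growth, 18.2 ± 0.876 RPKM at 60 h, 10.04 ± 1.74 RPKM at 120 h and 9.41 ± 1.01 RPKM at 168 h, and only 120 h and 168 h overlapped.

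Tcof1 encodes treacle, which serves both ribosomal DNA transcription and precursor modification and is mutated in Treacher Collins syndrome. Its level was 49.2 ± 4.8 RPKM in growth, 31.4 ± 2.28 RPKM at 60 h, 20.7 ± 2.13 RPKM at 120 h and 17.4 ± 0.593 RPKM at 168 h, with no overlap between any libraries. An exon of 108 bases, a multiple of 3, was held by some of its transcripts. This exon was picked after its values were seen. Forms with the exon took 25.8 ± 3.84 RPKM in growth, 21.8 ± 1.34 RPKM at 60 h and 6.64 ± 1.44 RPKM at 120 h, and none was assembled at 168 h. Forms that skip it took 23.5 ± 2.88 RPKM in growth, 9.62 ± 1.84 RPKM at 60 h, 14.1 ± 1.56 RPKM at 120 h and 17.4 ± 0.593 RPKM at 168 h. The share with the exon was therefore 52.4% in growth, 69.4% at 60 h, 32.0% at 120 h and 0% at 168 h. Forms without the exon were above their 60 h level at 168 h, although the gene's total was lower. They were not the same form: at 60 h they also skipped another exon of 144 bases, which no transcript skipped in the other libraries.

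Ncl (nucleolin, chr1:88244085-88256620), which binds nascent ribosomal RNA, had 88.5 ± 3.85 RPKM in growth, 46.2 ± 1.17 RPKM at 60 h, 43.4 ± 2.46 RPKM at 120 h and 50.4 ± 1.94 RPKM at 168 h by the sum. Its sums at 120 h and 168 h add 6 transcripts each. At 168 h those included 2 pieces of 7 exons at 23.2 ± 1.32 and 23.6 ± 1.05 RPKM that each cover a different stretch of the gene. Through the introns Ncl stood at 81.4 ± 2.18 RPKM in growth, 42.6 ± 0.928 RPKM at 60 h, 36.3 ± 1.57 RPKM at 120 h and 23.4 ± 1.18 RPKM at 168 h, with every library below the one before it and no overlap. The log2 ratio at 168 h against growth was -1.76 through the introns and -0.80 by the sum, so Ncl fell through the introns and not by the sum. By its fragments per kilobase of the union of its exons it fell as well (-2.28, and -1.26 at 60 h against growth). Only 0.865% of the 50-base words of Ncl occurred in other annotated genes. Npm1 (nucleophosmin, chr11:33050506-33063256), a chaperone of ribosomal particles and histones, was far less well resolved: 31.9% of its words occur in 11 other annotated genes. Of 6 introns held in any library, growth held 3, 60 h held 2, 120 h held 3 and 168 h held 0. Its sums were 38.6 ± 4.37 RPKM in growth, 12.8 ± 2.03 RPKM at 60 h, 44.5 ± 5.68 RPKM at 120 h and 49.5 ± 5.56 RPKM at 168 h. The fall at 60 h passed the rule by the sum (-1.53) and through the introns (-2.15). The 168 h sum rests mainly on 1 single-exon piece of 126 bases at 39.5 ± 5.35 RPKM, so no level of the whole gene can be given there.

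Of the 5 core proteins of the snoRNPs, 3 fell at 60 h and 4 at 168 h against growth, beside 15.4% and 18.5% of all genes. Their median log2 ratios were -1.34 and -1.68 by the sum. Nop58, of the box C/D particles that guide methylation (chr1:59741821-59768516), had 43.2 ± 3.36 RPKM in growth, 22.7 ± 1.02 RPKM at 60 h, 13.9 ± 3.03 RPKM at 120 h and 6 ± 0.525 RPKM at 168 h. All 4 libraries were apart by the sum, but the 120 h value adds 2 transcripts; through the introns it was 6.92 ± 0.843 RPKM and overlapped 168 h. At 13.9% of its growth level at 168 h (-2.66) it was the gene furthest below growth. Fbl (fibrillarin), the methyltransferase of the same particles, had 52.6 ± 3.85 RPKM in growth, 12.3 ± 1.18 RPKM at 60 h, 19.4 ± 9.38 RPKM at 120 h and 8.86 ± 1.13 RPKM at 168 h. Growth was above all later libraries, and the wide 120 h limits overlapped those at 60 h. The 120 h value combines 2 transcripts over the same span, at 8.63 ± 6.64 and 10.8 ± 6.62 RPKM. The assembled Fbl piece held 3 introns of a gene annotated with 9 exons, and 70.2% of the words of Fbl occur in other annotated genes, so its level is uncertain. Dkc1 (dyskerin), the pseudouridine synthase of the box H/ACA particles, had 20.5 ± 1.07 RPKM in growth, 7.1 ± 0.482 RPKM at 60 h, 2.71 ± 0.869 RPKM at 120 h and 5.7 ± 0.708 RPKM at 168 h by the sum. Through the introns its 168 h level was 3.33 ± 0.424 RPKM, overlapping 120 h, where only 4 of 14 introns were held. Nhp2, a small core protein of box H/ACA particles, had 112 ± 2.8 RPKM in growth, 43.7 ± 1.57 RPKM at 60 h, 51.8 ± 2.66 RPKM at 120 h and 39.1 ± 1.57 RPKM at 168 h, with no overlap between libraries. Between 1055 and 1313 of its assembled bases lay over exons of Rmnd5b on the other strand, and without strand marking the fragments of the 2 genes cannot be told apart.

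Nop56, the partner of Nop58 and Fbl in the same particles, was the 1 of the 5 that passed the rule at neither time, with 50.9 ± 1.55 RPKM in growth, 50.9 ± 1.64 RPKM at 60 h, 39.4 ± 2.1 RPKM at 120 h and 36.3 ± 3.06 RPKM at 168 h. Growth and 60 h overlapped, and the log2 ratio was 0.00 at 60 h and -0.47 at 168 h against growth. In growth alone its transcript of 3970 bases ran 1136 bases into Idh3b on the other strand, so its growth value is a mean over bases of both genes and cannot be told apart from Idh3b. In addition 30.3% of Nop56 words occur in other annotated genes. Annotated snoRNA genes lie within the bounds of 6 of the 33 genes (Ncl with 3, Gnl3 with 3, Nop56 with 5, Nop58 with 4, Dkc1 with 1 and Wdr43 with 3). The 6 hosts had a median log2 ratio of -0.81 at 60 h and -1.18 at 168 h against growth, beside -0.80 and -0.97 in the other 27.

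**Figure D3:**
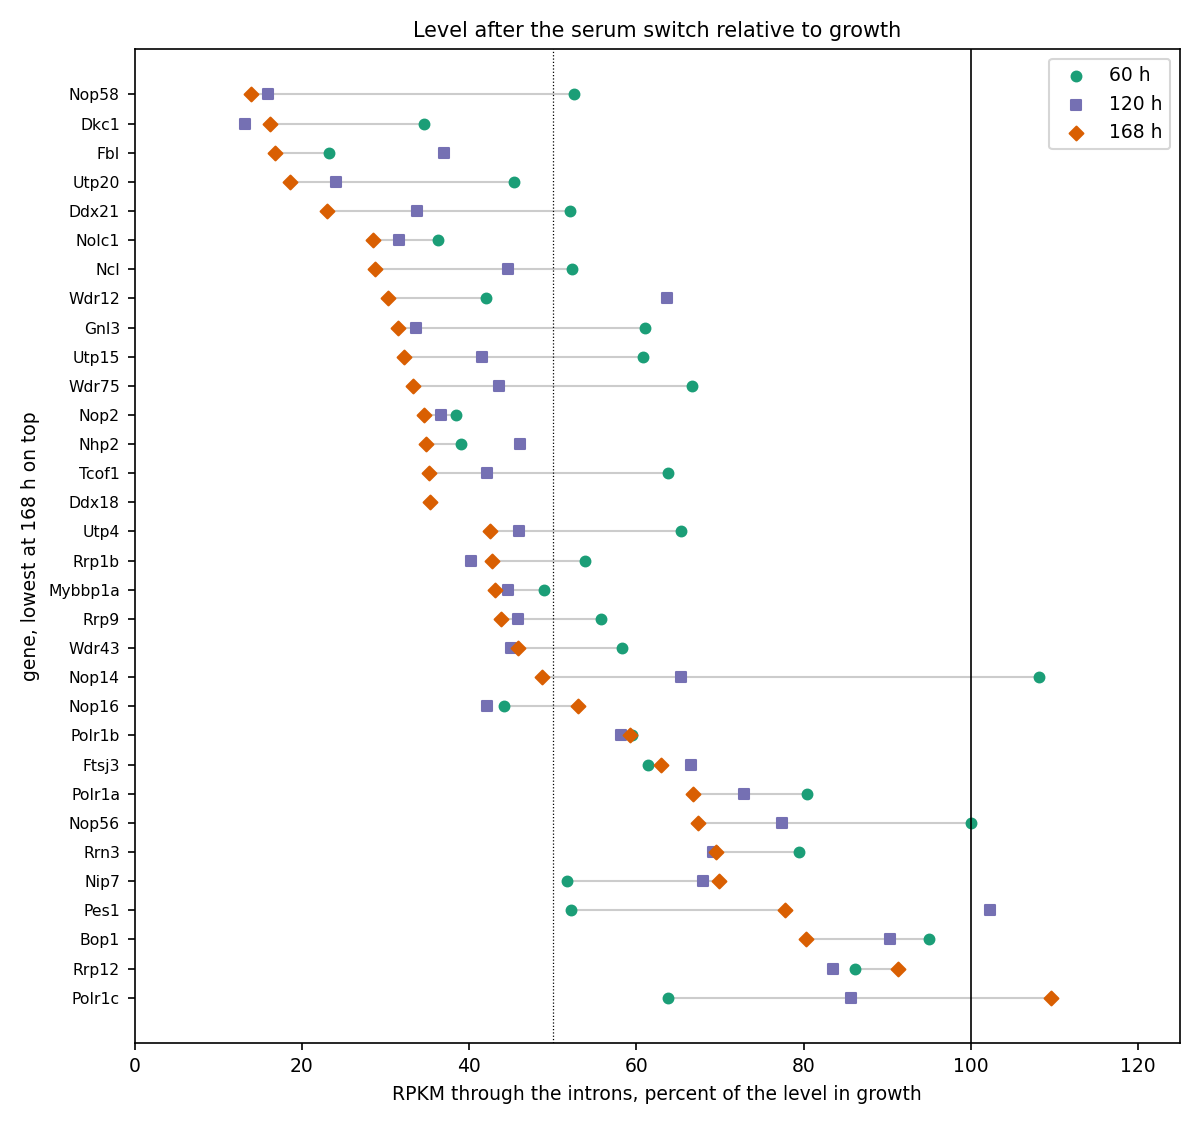
RPKM through the introns at 60 h (circles), 120 h (squares) and 168 h (diamonds) as a percent of the level in growth (solid line, 100; dotted line, 50), 1 row per gene, lowest at 168 h on top. Nop58 is lowest with 13.9% at 168 h, while Polr1c is above growth at 109.6%; Npm1 has no intron value at 168 h and is not drawn, and Ddx18 has a point at 168 h alone.

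In the small-subunit processome, 1 of 8 genes fell at 60 h, no more than the 15.4% of all genes that did. The falls at 168 h against growth were 4 of 8, and 6 of 8 through the introns, beside 18.5% and 17.8% of all genes. The 4 genes of the subcomplex that first meets the precursor, Utp4, Utp15, Wdr43 and Wdr75, did not reach the 2-fold rule at 60 h. Their log2 ratios there were -0.60 for Utp4, -0.28 for Utp15 (-0.64 through the introns), -0.73 for Wdr43 and -0.55 for Wdr75. At 168 h against growth all 4 had fallen through the introns, Wdr43 just past the line (-1.05). By the sum Utp15 (-0.32) and Wdr43 (-0.69) did not reach the rule there. Utp4 had 53.3 ± 1.79 RPKM in growth, 34.8 ± 1.15 RPKM at 60 h, 24.5 ± 1.35 RPKM at 120 h and 22.7 ± 0.971 RPKM at 168 h. Only 120 h and 168 h overlapped. Wdr75 had 20.8 ± 1.06 RPKM in growth, 13.8 ± 0.648 RPKM at 60 h, 9.04 ± 0.753 RPKM at 120 h and 6.91 ± 0.487 RPKM at 168 h, with no overlap. Utp15 had 10.5 ± 0.665 RPKM in growth, 6.38 ± 0.443 RPKM at 60 h, 4.36 ± 0.5 RPKM at 120 h and 3.38 ± 0.452 RPKM at 168 h through the introns and was apart in all 4 libraries. Wdr43 had 19.6 ± 0.9 RPKM in growth, 11.4 ± 0.527 RPKM at 60 h, 8.79 ± 0.718 RPKM at 120 h and 8.96 ± 0.554 RPKM at 168 h by that measure, and did not differ between 120 h and 168 h beyond the limits.

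Rrp9, the protein specific to the U3 snoRNP, had 70.7 ± 2.43 RPKM in growth, 39.5 ± 1.41 RPKM at 60 h, 32.4 ± 1.85 RPKM at 120 h and 31 ± 1.34 RPKM at 168 h, and its fall at 168 h (-1.17) came with overlapping limits at 120 h and 168 h. Utp20, a very long scaffold protein of the processome, was assembled as 1 transcript with all 61 introns in growth, at 60 h and at 168 h. Through the introns it had 12 ± 0.437 RPKM in growth, 5.44 ± 0.226 RPKM at 60 h, 2.88 ± 0.622 RPKM at 120 h and 2.22 ± 0.152 RPKM at 168 h. By the sum it stood at 16.9 ± 2.3 RPKM at 120 h, where the assembly broke into 4 transcripts with 21 of the 61 introns. A single-exon piece of 383 bases there carried 9.17 ± 1.98 RPKM. The sum therefore rose at 120 h against 60 h (1.48) while the intron value was lower (-0.73). Nop14 had 20.4 ± 1.03 RPKM in growth, 22 ± 0.826 RPKM at 60 h, 13.3 ± 0.903 RPKM at 120 h and 9.91 ± 0.573 RPKM at 168 h. It did not differ between growth and 60 h beyond the limits, and at -0.97 it lay just short of the rule at 168 h against growth. Rrp12, needed for maturation and export of both subunits, had 22.1 ± 0.816 RPKM in growth, 19.1 ± 0.49 RPKM at 60 h, 18.5 ± 0.74 RPKM at 120 h and 20.2 ± 0.706 RPKM at 168 h through the introns. By that measure growth was above the 3 later libraries, though not above 60 h or 168 h after rescaling by median ratios. Its 60 h limits overlapped those at 120 h and 168 h. Over the union of exons Rrp12 was higher at 60 h than in growth (0.19). The sum of Rrp12 was 37.7 ± 2.24 RPKM in growth and 58.3 ± 1.82 RPKM at 168 h, each over 5 transcripts. By the sum it was thus higher at 168 h than in growth beyond the limits, though short of the rule (0.62).

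Of the 9 measured large-subunit factors, 3 fell at 60 h and 3 at 168 h against growth, beside 15.4% and 18.5% of all genes. The 3 at 168 h were Nop2, Wdr12 and Ddx18. Of these, Ddx18 was barely assembled and did not fall over the union of exons (-0.24). Nop2, which methylates the large ribosomal RNA, was assembled as 1 transcript throughout: 93.1 ± 2.22 RPKM in growth, 35.8 ± 1.06 RPKM at 60 h, 34.1 ± 1.46 RPKM at 120 h and 32.2 ± 1.06 RPKM at 168 h. Growth stood apart, and the 120 h limits overlapped those of 60 h and 168 h. Bop1, Pes1 and Wdr12 form 1 complex (PeBoW) known to be needed for 60S assembly. Of the 3, Wdr12 alone fell against growth, by the sum and through the introns (over the union of exons, at 168 h alone); the difference between the 3 genes was not tested. Bop1 had 146 ± 2.83 RPKM in growth, 139 ± 7.07 RPKM at 60 h, 132 ± 6.82 RPKM at 120 h and 117 ± 2.04 RPKM at 168 h; 60 h overlapped both growth and 120 h, and the log2 ratio at 168 h against growth was -0.31. Rescaling by median ratios placed Bop1 higher at 60 h than in growth. Between 744 and 746 of its bases lay over exons of Mroh1 on the other strand. Pes1 was assembled in pieces or in part: growth held 3 of 13 introns and 168 h held 6, and 24.6% of its words occur in other annotated genes. Through the introns Pes1 had 25.7 ± 1.32 RPKM in growth, 13.4 ± 1.14 RPKM at 60 h, 26.3 ± 2.25 RPKM at 120 h and 20.01 ± 0.931 RPKM at 168 h, with growth and 120 h overlapping. Its sum of 116 ± 5.85 RPKM at 120 h added 4 pieces. Wdr12 had 34.4 ± 5.26 RPKM in growth, 13.6 ± 1.72 RPKM at 60 h, 16.5 ± 2.81 RPKM at 120 h and 12.1 ± 2.29 RPKM at 168 h as the sum of 4 to 8 pieces. Through the introns its levels were 8.36 ± 2.38 RPKM in growth, 3.51 ± 0.843 RPKM at 60 h, 5.32 ± 1.33 RPKM at 120 h and 2.53 ± 0.865 RPKM at 168 h. By the sum the 3 later libraries overlapped one another, the log2 ratio at 60 h against growth was -1.27, and 105 of its bases lay over exons of Carf on the other strand.

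Nop16 fell at 60 h (-1.15), with 54.1 ± 2.1 RPKM in growth, 23.9 ± 1.11 RPKM at 60 h, 22.8 ± 1.48 RPKM at 120 h and 33.4 ± 2.71 RPKM at 168 h. At 168 h it was above 60 h beyond the limits and no longer past the rule against growth (-0.68). At 60 h alone, 202 of its bases lay over Higd2a on the other strand. Nip7, a small protein of precursor processing, had 57.9 ± 3.42 RPKM in growth, 29.9 ± 1.79 RPKM at 60 h, 39.4 ± 3.91 RPKM at 120 h and 40.5 ± 2.71 RPKM at 168 h through the introns, with 120 h and 168 h overlapping. It was lowest at 60 h by that measure and by the sum; over the union of exons it was lowest at 168 h and fell there against growth (-1.07). Ftsj3, a ribosomal RNA methyltransferase, had 31.3 ± 1.02 RPKM in growth, 19.3 ± 0.632 RPKM at 60 h, 20.9 ± 1.06 RPKM at 120 h and 19.7 ± 0.789 RPKM at 168 h. Its later 3 libraries overlapped one another, and 465 to 2125 of its bases lay over exons of Ddx42 on the other strand. Rrp1b had 12.8 ± 1.71 RPKM in growth, 6.9 ± 0.356 RPKM at 60 h, 5.14 ± 0.431 RPKM at 120 h and 5.48 ± 0.387 RPKM at 168 h through the introns and fell at 168 h against growth by that measure (-1.09) and over the union of exons (-1.25), but not by the sum (-0.58). Ddx18, a helicase, was barely assembled: 4.55 ± 1.56 RPKM in growth, 2.13 ± 1.43 RPKM at 60 h, no transcript at 120 h and 1.29 ± 0.469 RPKM at 168 h. Those levels rest on 39 fragments in growth, 9 at 60 h and 30 at 168 h. In addition 61.4% of its words occur in other annotated genes, so its calls are uncertain. They include its fall at 168 h against growth (-1.28 by the sum), which is counted in the 16 of 33.

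None of the 4 RNA polymerase I genes passed the rule in any of the 4 comparisons (0 of 4, log2 ratios from -0.69 to 0.42). Over all genes 15.4% fell at 60 h and 18.5% at 168 h against growth. Polr1a, the largest subunit, had 26 ± 0.772 RPKM in growth, 20.9 ± 0.533 RPKM at 60 h, 18.9 ± 0.713 RPKM at 120 h and 17.4 ± 0.51 RPKM at 168 h. Each library was below the one before beyond the limits, but the step at 168 h against 120 h turned round after rescaling by median ratios. Rrn3, shown above with its 2 E-boxes, had 38.4 ± 1.23 RPKM in growth, 30.5 ± 0.846 RPKM at 60 h, 26.6 ± 1.11 RPKM at 120 h and 26.7 ± 0.83 RPKM at 168 h, with 120 h and 168 h overlapping. Polr1b, the second-largest subunit, had 15.5 ± 1.64 RPKM in growth, 9.24 ± 1.21 RPKM at 60 h, 9.03 ± 2.04 RPKM at 120 h and 9.2 ± 1.13 RPKM at 168 h through the introns, where the 3 later libraries overlapped. Polr1c, a subunit shared with RNA polymerase III, had 61.7 ± 3.68 RPKM in growth, 39.3 ± 2.44 RPKM at 60 h, 52.9 ± 2.63 RPKM at 120 h and 67.7 ± 4.14 RPKM at 168 h. It was lowest at 60 h, and 168 h overlapped growth. In growth and at 60 h 361 of its bases lay over exons of Yipf3 on the other strand, at 120 h 32, and at 168 h none. Its assembled exons covered 1844 bases in growth and 1216 at 168 h, so those levels are means over different stretches.

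Between the later times few genes passed the rule. At 120 h against 60 h 3 of 33 rose (12.4% of all genes) and 2 fell (3.87%). The 3 that rose, Npm1, Utp20 and Pes1, were all broken into 4 to 6 transcripts at 120 h, and only Npm1 also rose through the introns, where 3.69% of all genes did. Pes1 was short of the rule there (0.92). Over the union of exons Npm1 (1.24) and Pes1 (1.04) both rose, and Utp20 was lower (-0.57). Over the 1 intron that 60 h and 120 h both held, Npm1 was lower at 120 h (-0.95). The 2 that fell were Dkc1 and Ddx18, and Ddx18 counts there because it was not assembled at 120 h. At 168 h against 120 h 1 gene rose (4.15% of all genes), again Ddx18, and 4 fell (10%): Fbl, Nop58, Utp20 and Pes1. Of those 4, Fbl alone fell through the introns (-1.05, the same value as by its sum), where 3.56% of all genes did. Nop58 shows the effect of the measure: its sum placed the lower level at 168 h (-1.09), and its introns already at 120 h (-1.58 against 60 h, -0.18 at 168 h against 120 h). Through the introns 15 of the 31 genes measured in all 4 libraries were lower at each later time, against 18.8% of 9865 genes. That count dropped to 7 of 31 (14.6% of all) after rescaling by median ratios and to 11 of 31 (19.7%) at equal totals. In contrast, 27 of the 31 were highest in growth, against 46.1% of all genes, and these were 25 and 28 under the same rescalings.

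**Figure D4:**
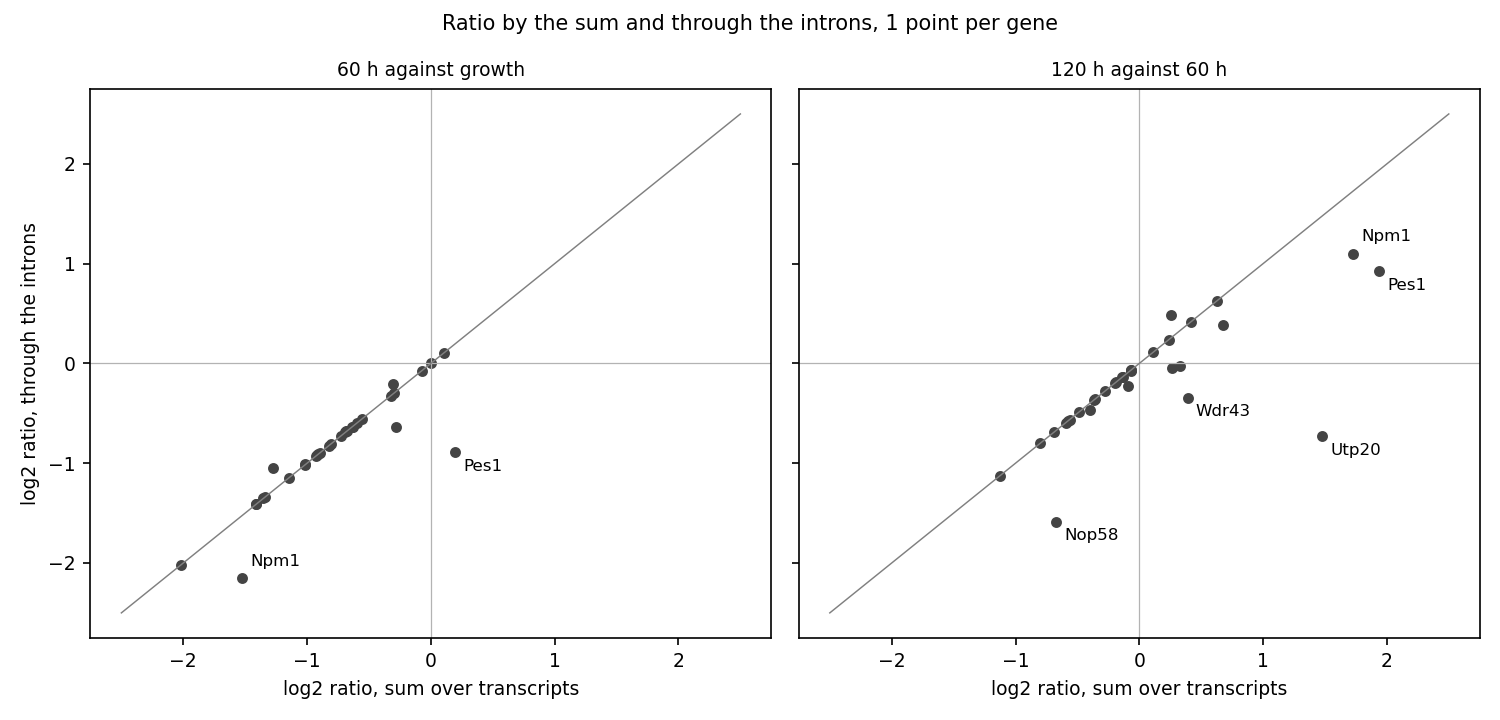
Each point is a gene, with its log2 ratio by the sum of RPKM (x axis) and through the introns (y axis), at 60 h against growth (left) and 120 h against 60 h (right); the diagonal marks equal values, and genes over 0.5 from it are named. At 60 h against growth nearly all points lie on the diagonal and below 0, whereas at 120 h Utp20, Pes1, Nop58, Wdr43 and Npm1 lie over 0.5 to the right of it.

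Other genes of the pathway were listed by role, 135 in all, of which 130 were named. At 60 h against growth 2 of 129 rose and 19 fell, a share of falls close to the 15.4% over all genes, with a median log2 ratio of -0.53. At 168 h against growth 3 of 130 rose and 48 fell, beside 18.5% of all genes, with a median of -0.79. Imp4, a U3 snoRNP protein, had 8.83 ± 0.343 RPKM at 60 h, against 38.5 ± 1.79 RPKM in growth. Emg1, a methyltransferase of the small-subunit RNA, had 33 ± 1.19 RPKM at 60 h, against 93.3 ± 2.88 RPKM in growth. The RNA polymerase subunits Polr1e and Polr2h fell at 60 h, with log2 ratios of -1.54 and -2.10. Gar1, the box H/ACA partner of Nhp2 and Dkc1, gave the largest fall by the sum (-2.83), though not through the introns at 60 h. Ruvbl1 (-1.62) and Senp3 (-1.78) fell by the sum and did not pass the rule through the introns, and Rsl24d1 (-1.63) had no intron value in growth. Riok3 rose, with 35.5 ± 0.967 RPKM at 60 h, against 13.6 ± 0.787 RPKM in growth, and Polr2k was not assembled in growth and stood at 12.3 ± 2.74 RPKM at 60 h. In the nuclear exosome, which trims precursor ends, 2 of 13 genes fell at 60 h and 5 at 168 h (15.4% and 18.5% of all genes), led at 60 h by Exosc2 (-1.51) and Exosc8 (-1.32).

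**Figure D5:**
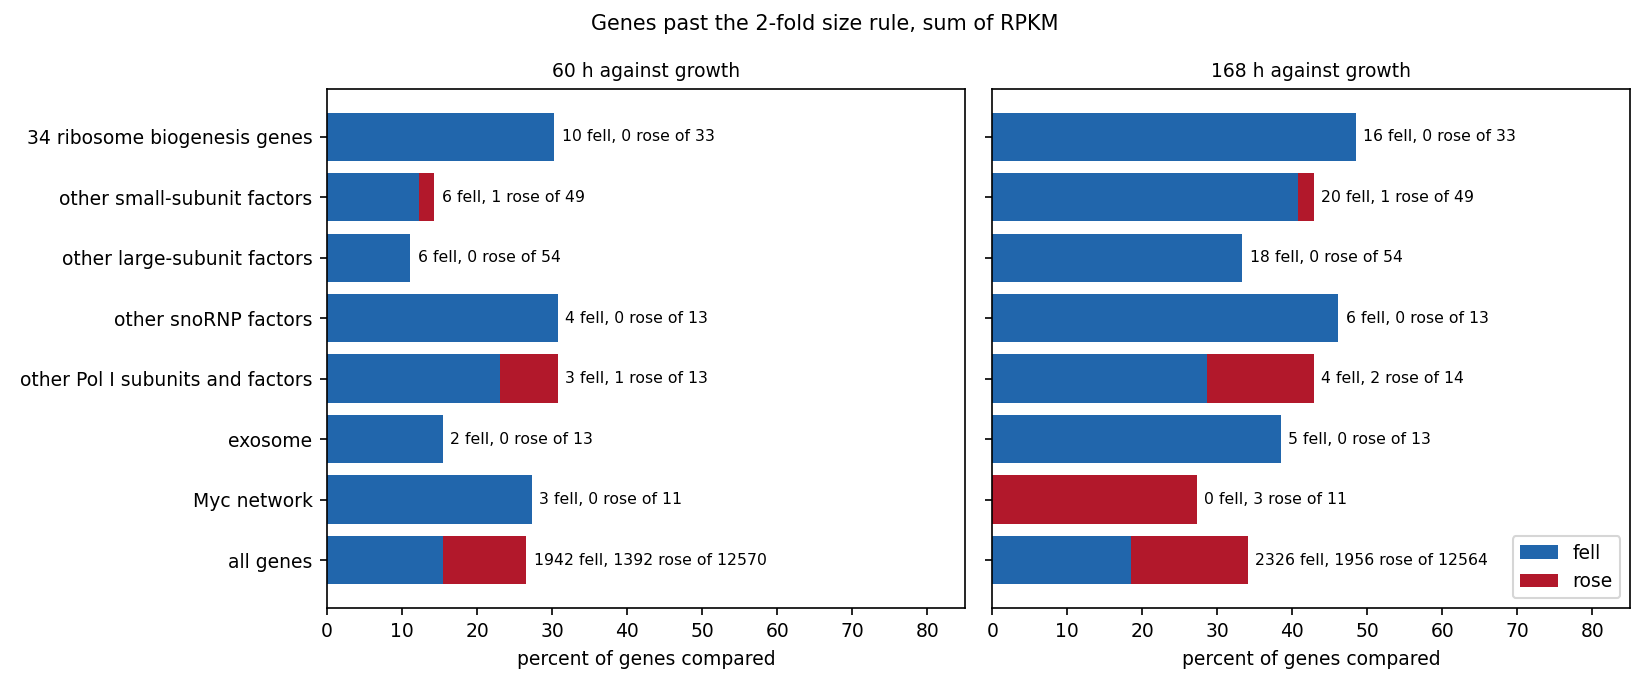
Bars give the percent of compared genes that fell (blue) and rose (red) by the 2-fold rule on the sum of RPKM, at 60 h (left) and 168 h (right) against growth, for the 34 genes (33 measured), lists of other pathway genes, the Myc network and all genes. At 168 h 16 of the 33 fell, against 18.5% of all genes, and the Myc network is the 1 list shown with more genes up than down.

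Myc itself had 31.4 ± 5 RPKM in growth, 24.5 ± 4.94 RPKM at 60 h, 24.3 ± 6.34 RPKM at 120 h and 18.1 ± 1.83 RPKM at 168 h. The 3 later libraries overlapped one another, 60 h and 120 h overlapped growth, and Myc passed the rule in neither comparison with growth (-0.34 at 60 h, -0.76 at 168 h). In its network 3 of 11 genes fell at 60 h (15.4% of all genes; 2 of 11 through the introns), led by Mxd3 (-1.51) and Cad (-1.32), and at 168 h 0 of 11 fell and 3 rose (18.5% and 15.6% of all genes), of which 2 also rose through the introns. The 3 were Mxd1, Mxd3 and Mxd4, which encode partners of Max known to oppose Myc. They are named here after their values were seen, and Mxd3, which had fallen at 60 h, had no intron value to compare. Mxi1, Mnt and Mga, also in the list, were not among the genes that rose, so the 3 do not stand for the list as a whole. The 7 genes with an E-box in the promoter window had a median log2 ratio of -0.73 at 60 h and -1.20 at 168 h against growth, with 3 and 4 of 7 falling. The 21 measured genes with a window and no E-box had medians of -0.83 and -0.97, with 5 and 10 of 21 falling. Over all genes 15.4% and 18.5% fell in these comparisons.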

How the data were processed

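Polyadenylated RNA was sequenced as paired ends of 76 bases, per the labels' protocols, after fragmentation and random priming, with no strand marking described. The authors deposited 1 file of assembled transcripts per library; its attribute column (unit other) holds RPKM and confidence limits per transcript, per the file headers and values. The submitters' processing notes list TopHat 1.0.13 and Cufflinks 0.8.0 without saying what each did. No source used here names the genome build.

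Genes were named by matching runs of intron and exon lengths to GENCODE vM21 (122769 of 137519 introns by runs, 5306 by their own length between named neighbours). Unspliced transcripts went to a gene if 50% or more of their bases fell in its assembled exons. Genes of 1 exon are not analysed here, and 4 listed genes were taken under older symbols. The limits, 2 square roots of a count in loci with 1 transcript, gave library sizes of 28513976 (growth), 48228887 (60 h), 24488681 (120 h) and 43845262 (168 h) fragments. Implied counts under 50 were whole within 0.01 for 90.4% to 90.9% of values.

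Log2 ratios used a pseudocount of 1 RPKM. The genes and lists were chosen with earlier results of these data known. All 34 genes are described; of every other list, up to 2 called rises and 2 called falls of largest size at 60 h against growth are named, plus Myc. Copies are the percent of 50-base words of a gene's coding transcripts found in other annotated genes. Scripts ran in Python 3.11.15 with pandas 2.3.3 and numpy 2.4.6, and were tested on simulated data. The deposited limits cover counting error and the sharing of fragments among transcripts, and no difference between cultures. The alternatives were another pseudocount, other minimum levels, 2 rescalings, 4 gene measures, genes assembled in both libraries alone, and a 4-fold rule; 1 measure (introns held in both libraries) was added after seeing the data.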

Additional observations from a re-analysis of the deposited data

How the results depend on the processing

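No paired analysis was possible because there was 1 library per time point, and no library could be left out for the same reason. Of 1051 ratios of single genes under the alternatives, 1003 kept their side of the 2-fold rule (951 with the same sign, and 52 that passed it in neither setting with the other sign), 25 no longer passed it, 19 newly passed it, and 4 past the rule changed sign: Utp20 at 120 h against 60 h (-0.73 through the introns, -0.57 over the union of exons) and Npm1 with multi-exon transcripts alone (-4.19 at 168 h against 120 h, -5.31 at 168 h against growth, since no multi-exon transcript was assembled at 168 h). A further 5 could not be given.

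Against growth the counts of falls were 7 to 10 at 60 h and 15 to 20 at 168 h over the alternatives at the 2-fold rule, and 1 and 4 at the 4-fold rule. Falls at 60 h against growth numbered 7 after median-ratio rescaling and 8 at equal totals. Rescaling by median ratios put the median of all genes at 0.02 in place of -0.18 at 60 h against growth, and that of the 33 genes at -0.59. At 168 h against growth the medians were 0.06 over all genes and -0.79 over the 33. At 168 h against 120 h the median of the 33 became 0.048 in place of -0.11, with 12 of 33 lower in place of 23.

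At 120 h against 60 h the 3 rises became 2 over the union of exons and 1 with multi-exon transcripts or through the introns. They became 0 at the 4-fold rule or over introns held in both libraries. The 2 falls became 1 at a minimum of 5 RPKM, with multi-exon transcripts, or with genes assembled in both libraries, and 0 at the 4-fold rule. At 168 h against 120 h the 1 rise became 2 at a pseudocount of 0.1 and 0 at a minimum of 5 RPKM, with genes assembled in both libraries, at the 4-fold rule or over introns held in both. The 4 falls became 2 under either rescaling or over introns held in both, and 1 through the introns, over the union of exons or at the 4-fold rule. The cause was not tested. Ddx18 had 9 to 39 fragments where assembled, which limits its precision.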
